A study of Mus musculus with 35 samples.

Results

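Mouse tracheas transplanted into MHC compatible recipients (isografts) were compared between day 14 and day 4 after transplantation, with 5 arrays at each time. These 10 arrays belong to a series of 35, which also holds 5 native tracheas that were not transplanted, 5 isografts at day 25, and 5 tracheas placed in MHC incompatible recipients (allografts) at each of days 4, 14 and 25. The labels name the tissue as trachea and give no strain, age, sex or implantation site for donors or recipients. They do not say whether each array is 1 animal, so the p-values measure the spread between arrays, which may in part be technical. Every probe set that is not an array control and that reached a log2 level of 5 on at least 5 of the 10 arrays was kept, which gave 12164 of 22626 probe sets and at least 1 probe set for 7544 of 12393 genes. Group differences were tested with limma, and a probe set or gene is said to have risen, fallen or changed where its Benjamini-Hochberg adjusted p was under 0.05.

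The tracheal lining is a pseudostratified epithelium in which basal cells, the resident progenitors, give rise to secretory (club and goblet) cells and to multiciliated cells. After injury, surviving basal cells spread over the denuded surface and divide before new secretory and ciliated cells form. A graft placed without its own blood supply also passes through a period of poor oxygen supply and of inflammation driven by neutrophils and monocytes, followed by remodelling of the matrix beneath the lining. In an isograft donor and recipient share MHC type, so this sequence runs without the attack of recipient T cells that allografts meet.

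The values are log2 intensities normalised across the arrays, and the 10 arrays had median log2 levels of 5.07 to 5.30. Each correlated with the other arrays of its own group at a median Pearson's r of 0.911 to 0.950 over the 12164 probe sets kept. The weakest correlations in the series belonged to 1 isograft array at day 25 (0.845), 1 allograft array at day 14 (0.898) and 1 native array (0.898). None of these is among the 10 arrays compared, but all 35 arrays set the spread that the p-values use. Without that day 25 isograft array and that native array, 3045 probe sets passed the test instead of 2859. Krt5, the keratin of basal cells, averaged a log2 level of 9.76 ± 0.65 (SD, n = 5) at day 4 and 9.06 ± 0.76 at day 14, and Col2a1, the collagen of tracheal cartilage, averaged 11.59 ± 0.82 and 11.55 ± 0.87. The secretory markers Scgb1a1 and Scgb3a2 were above a log2 level of 8 on all 10 arrays, whereas Foxj1, the regulator of ciliated cells, lay between 4.87 and 5.10 on the day 4 arrays. The smooth muscle myosin Myh11 averaged 5.22 ± 0.70 and 6.95 ± 1.47.

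Between day 4 and day 14, 1160 probe sets (9.54% of 12164) rose and 1699 (14%) fell, of which 586 and 709 changed by at least 2-fold. Counted once per gene, on 1 representative probe set each, 875 of 7537 genes rose (11.6%) and 1019 fell (13.5%), and the median log2 difference over all these genes was -0.0034. The counts of each gene list below are to be read beside these shares. Changes of at least 16-fold were found for 20 probe sets that rose and for 3 that fell. The split depends on what is taken as constant: when the arrays were instead centred on 15 scaling reference genes, 2522 probe sets rose and 867 fell, since that centring adds 0.278 to every log2 difference. In that reference list Pgk1, Tfrc and Hprt fell and the other 12 genes did not pass the test; Hprt (adjusted p = 0.0297) lost its call without day 4 replicate 1 or day 14 replicate 3, 4 or 5.

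**Figure D1:**
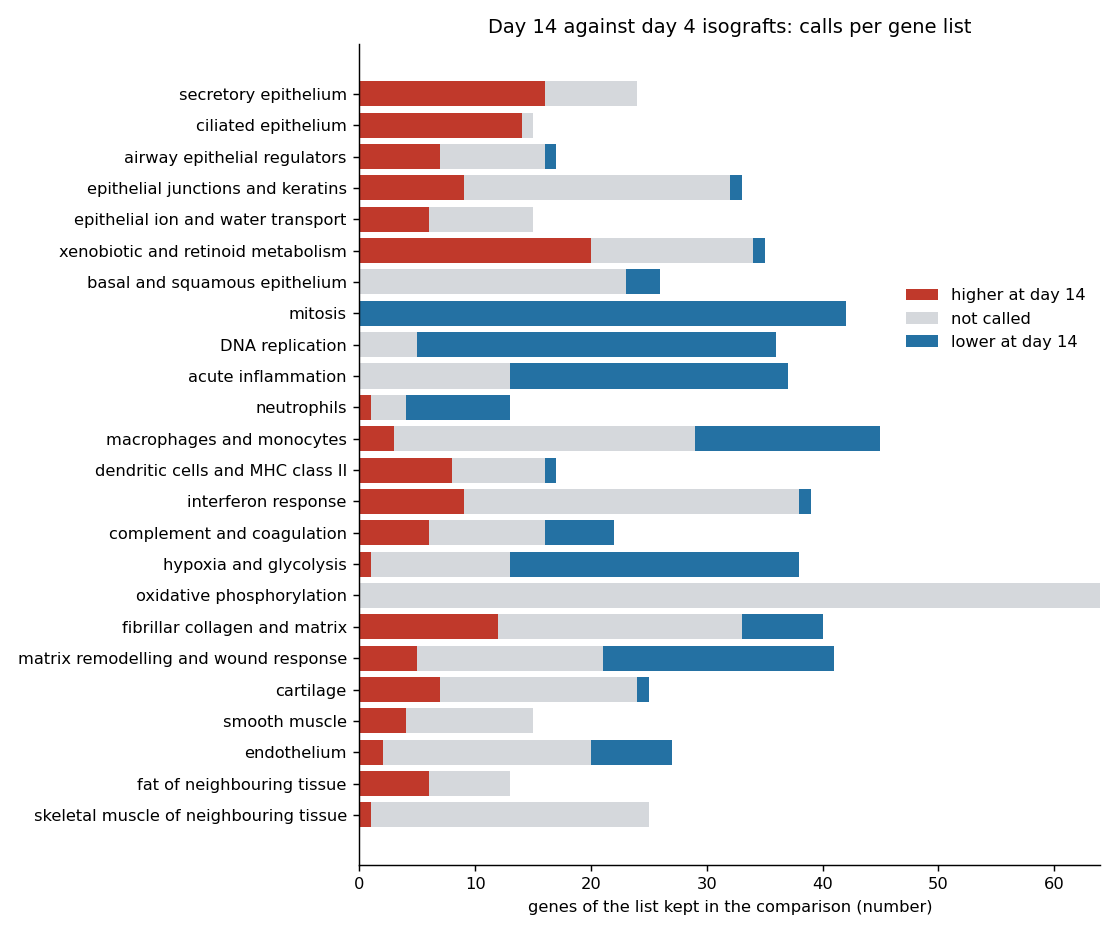
Number of genes in each of 24 lists that rose or fell in isografts between day 4 and day 14 (limma, adjusted p under 0.05) or did not pass the test, as stacked bars that together give the kept members of the list. The mitosis list falls whole (42 of 42), the ciliated list rises in 14 of 15 members, and oxidative phosphorylation has no called member. The filter kept 15 of these mitosis genes only through day 4 and 5 of these ciliated genes only through day 14, so they had to differ.

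The largest fitted rises among genes outside the neighbouring-gland markers described below were those of Lipf (gastric lipase), Dmbt1 and Pon1 (paraoxonase, an esterase that hydrolyses lipid peroxides). Lipf read 1.86, 2.02, 2.08, 2.80 and 3.5 on the day 4 arrays and 10.26, 8.33, 7.64, 6.81 and 8.97 on the day 14 arrays, a log2 difference of 5.95 ± 0.44 (SE; adjusted p = 7.9e-11), and native trachea averaged 13.29 ± 0.27. Pon1 read 3.03, 3.68, 4.07, 2.96 and 3.69 at day 4 and 9.04, 8.84, 8.6, 9.10 and 9.61 at day 14, a log2 difference of 5.55 ± 0.58 (adjusted p = 2.81e-08). Most day 4 readings of both genes lay near background, so the sizes depend on the authors' background model. Both genes were under the floor of 5 on every day 4 array and were kept only through day 14, so their groups could not overlap. Lipf at day 14 was still below native (-4.88, adjusted p = 1.92e-09). Cpxm2 (a carboxypeptidase-like protein), Gp2 (a membrane glycoprotein of secretory and antigen-sampling epithelium), Aox3 (an aldehyde oxidase), Drc3 (part of the dynein regulatory complex of motile cilia), Plet1 and Sult1c1 (a sulfotransferase) rose by log2 differences between 3.59 (Sult1c1) and 4.44 (Cpxm2). The largest falls were those of Il6, Timp1 and Top2a, described with their groups, followed by other cell division genes, by Ccl7, described with Ccl2 (log2 difference -3.72), and by Ccr1, a chemokine receptor of monocytes and neutrophils (log2 difference -3.45 ± 0.48, adjusted p = 2.65e-06).

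Secretory products of the airway surface rose as a group. Of 29 genes on the array, 24 were kept, 16 of these rose and none fell, with a median log2 difference of 1.63 over the kept genes; without the filter on low levels the counts were again 16 and 0. In 13 of the 24 every day 14 array was above every day 4 array, against 7.77% of all genes. Dmbt1, a scavenger receptor secreted onto mucosal surfaces, read 5.59, 3.92, 5.63, 5.40 and 6.66 on the day 4 arrays and 10.90, 9.99, 10.96, 11.46 and 11.70 on the day 14 arrays. That is a 47.2-fold rise (log2 difference 5.56 ± 0.49, adjusted p = 2.32e-09) with a wide gap between the groups, and the day 14 level remained below the native 13.02 ± 0.19 (-2.02, adjusted p = 0.00339). Scgb3a2, a secretoglobin of club cells, read 10.60, 8.63, 10.84, 9.26 and 9.89 at day 4 and 13.78, 13.63, 13.54, 13.69 and 13.69 at day 14. Its day 4 arrays were scattered and its day 14 arrays lay within a narrow band at the native level (13.54 ± 0.41); the log2 difference was 3.83 ± 0.56 (adjusted p = 6.5e-06).

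Other club cell products followed with smaller differences. Scgb1a1, the main club cell secretoglobin, read 11.39, 10.14, 11.60, 11.11 and 11.22 at day 4 and 13.18, 13.80, 13.18, 13.76 and 14.11 at day 14 (log2 difference 2.51 ± 0.53, adjusted p = 0.000742). Bpifa1, an antimicrobial protein that lowers surface tension in airway fluid, averaged 12.39 ± 0.47 and 14.61 ± 0.14 (log2 difference 2.22 ± 0.43). Muc5b, the gel-forming mucin needed for clearance, rose from 7.36 ± 0.54 to 9.63 ± 0.82 and stayed below native (11.55 ± 0.20). In all 3 the arrays of the 2 times did not overlap. Agr2, which folds mucins, rose by 1.62 and Reg3g, an antibacterial lectin, by 1.72, and the call for Reg3g was lost without day 4 replicate 2 (adjusted p = 0.071) or day 14 replicate 5 (0.0591). Ltf, the iron-binding protein lactoferrin, rose by 1.44 (adjusted p = 0.0465), a call lost on leaving out any 1 of 9 of the 10 arrays, with adjusted p up to 0.113. Slpi, an antiprotease of epithelium, had a log2 difference of -1.82 (adjusted p = 0.268) and Lcn2, an iron-scavenging protein that neutrophils also make, of -1.39 (0.0926). Neither passed the test, and both had overlapping arrays.

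Products of submucosal glands were measured less fully, with 10 of 18 genes kept. Of these Fcgbp (a mucus-associated protein), Ltf and Lyz1 (lysozyme) rose, and none fell. Fcgbp read 3.86, 4.19, 4.52, 3.83 and 4.63 at day 4 and 6.57, 6.37, 6.25, 8.88 and 7.12 at day 14 (log2 difference 2.83 ± 0.37, adjusted p = 9.74e-07). It was kept only through day 14, so its groups could not overlap. Without the filter 2 of the 18 genes rose and none fell. Dcpp1, a secretory protein of serous gland cells, showed little of this: it averaged 5.68 ± 0.84 and 6.73 ± 0.97, did not pass the test (adjusted p = 0.124), and was 13.92 ± 0.44 in native trachea. Tff2, a trefoil peptide of mucous cells, likewise reached only 6.35 ± 0.93 at day 14 against 11.36 ± 0.84 in native trachea (-5.01, adjusted p = 9.63e-13); its rise of 1.1 was lost without day 14 replicate 1 (adjusted p = 0.0635).

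**Figure D2:**
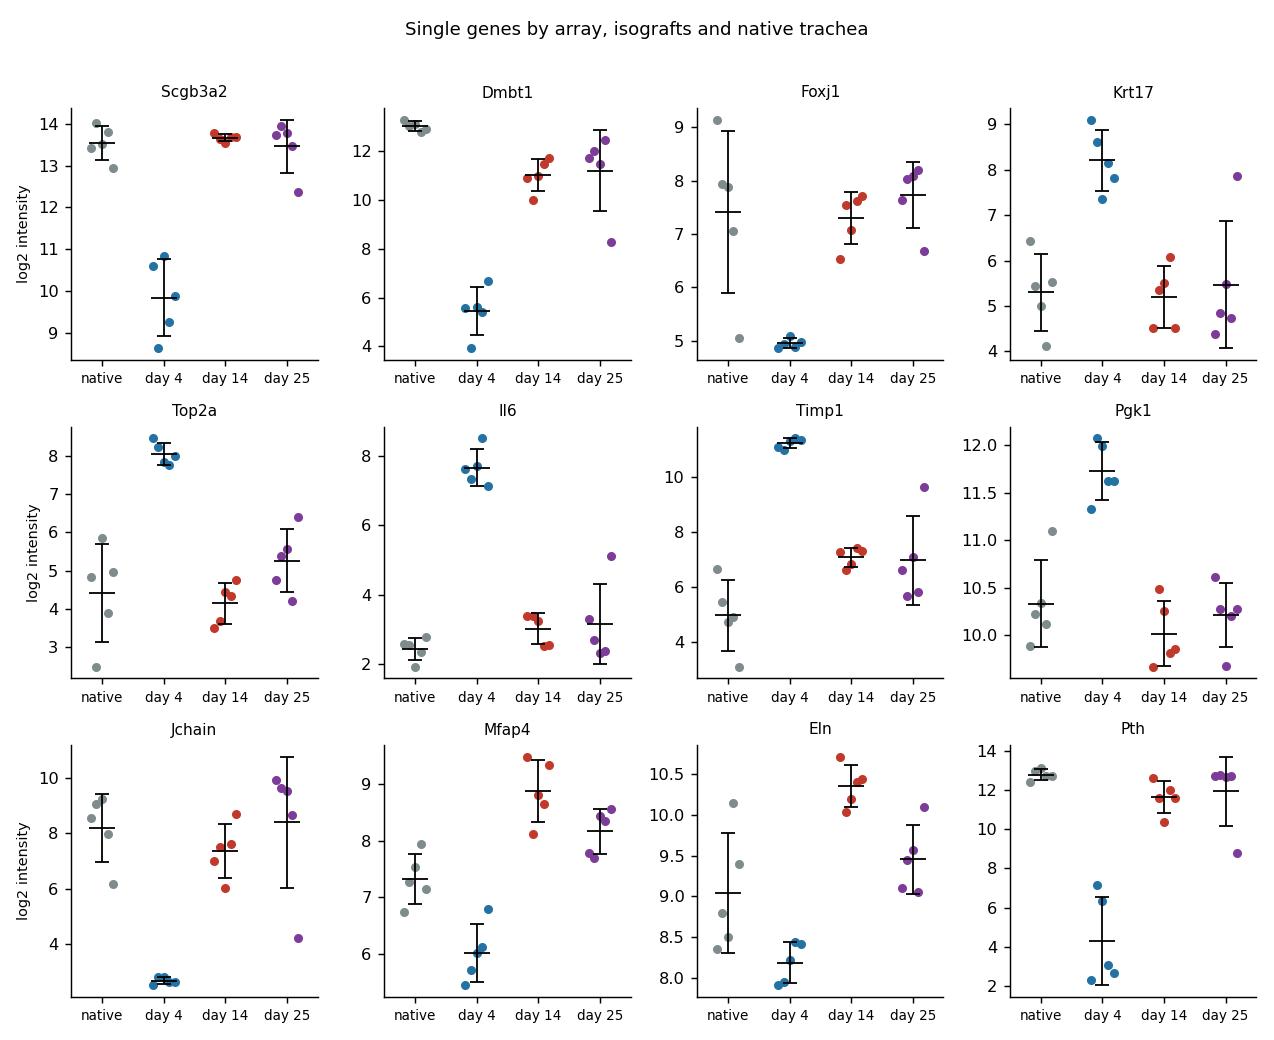
Log2 level of 12 genes on each array of native trachea and of isografts at days 4, 14 and 25 (points, 5 arrays a group), with the group mean and SD. Scgb3a2, Dmbt1 and Foxj1 are low at day 4 and high at day 14; Krt17, Top2a, Il6, Timp1 and Pgk1 run the other way.

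Most genes of motile cilia rose. Of 27 on the array 15 were kept, 5 of them only through the day 14 arrays, and 14 rose while Myb, which starts the ciliated program, did not pass the test (log2 difference 0.81, adjusted p = 0.291); without the filter 17 of the 27 rose and none fell. In 11 of the 15 the arrays of the 2 times did not overlap. Because members that cleared the floor only at day 14 had to differ, the counts describe the kept genes and not the whole ciliary gene set. Over all members on the array, the mean level per array was 4.81, 4.74, 4.76, 4.71 and 4.70 at day 4 and 5.50, 6.0, 6.01, 6.35 and 6.55 at day 14, against 5.29 to 6.16 in native trachea. The day 4 arrays sat within a narrow band, below every native array, and the day 14 arrays lay within or above the native range.

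Foxj1, the transcription factor that commits cells to motile cilia, read 4.87, 4.94, 5.10, 4.88 and 4.97 at day 4 and 6.54, 7.54, 7.08, 7.61 and 7.71 at day 14 (log2 difference 2.35 ± 0.45, adjusted p = 0.000256). The structural genes showed the same order of groups. Rsph1, a radial spoke protein, read 4.58, 4.69, 4.38, 4.32 and 4.45 and 6.16, 7.59, 8.55, 8.54 and 8.14 (log2 difference 3.31 ± 0.41, adjusted p = 4.22e-07). Tppp3, a microtubule-bundling protein of ciliated cells, averaged 6.20 ± 0.38 and 9.31 ± 0.94 and rose by 3.11 ± 0.45. Ift172 and Ift57, of the intraflagellar transport complex that builds cilia, rose by 2.85 and 1.19, Tekt1 (a tektin of the axoneme) by 2.00, Mlf1 by 2.75 and Rsph9 (radial spoke head) by 2.30. For each of these genes the lowest day 14 array was above the highest day 4 array. For Rsph1, and for any other gene kept only through day 14, the filter fixed this in advance. Ift88 had the smallest rise of the list (0.51, adjusted p = 0.0407), and its call was lost on leaving out 7 of the 10 arrays singly (adjusted p up to 0.111).

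RFX factors switch on many ciliary genes with Foxj1, and they bind repeats built from the letters GTTGCC, so the promoters of the ciliary genes that rose are shown for these letters. RefSeq promoters (GRCm38.p6) were matched for 11 of the 14 genes, and the 250 bases before the start site were searched on both strands. GTTGCC was present in 6 of the 11 (Cetn2, Cfap298, Ift57, Lrrc23, Mlf1 and Tekt1), in 9.97% of the 6108 kept genes that had a promoter, and in 10.5% of all 27025 genes with one. The forkhead letters TGTTTAC were found only in Mlf1 among the 11 and in 3.09% of all promoters. Both are letter matches, not sites shown to be bound. In the stretches below, capitals mark GTTGCC, its reverse complement, or TGTTTAC; they are from chr16:49699044-49699293 (plus strand), chr11:72361883-72362132 (minus strand) and chr3:67373847-67374096 (plus strand), each 5′ to 3′ toward the gene.
Ift57: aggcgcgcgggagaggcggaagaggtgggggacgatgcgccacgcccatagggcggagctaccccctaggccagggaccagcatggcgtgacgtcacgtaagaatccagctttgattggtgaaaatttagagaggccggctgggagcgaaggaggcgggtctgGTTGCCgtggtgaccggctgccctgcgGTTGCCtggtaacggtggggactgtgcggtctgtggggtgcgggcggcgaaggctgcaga
Tekt1: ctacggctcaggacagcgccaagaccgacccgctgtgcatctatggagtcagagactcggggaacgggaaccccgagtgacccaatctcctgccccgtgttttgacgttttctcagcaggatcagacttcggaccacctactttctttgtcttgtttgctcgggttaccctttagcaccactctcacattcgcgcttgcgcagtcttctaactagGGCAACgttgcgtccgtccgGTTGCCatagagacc
Mlf1: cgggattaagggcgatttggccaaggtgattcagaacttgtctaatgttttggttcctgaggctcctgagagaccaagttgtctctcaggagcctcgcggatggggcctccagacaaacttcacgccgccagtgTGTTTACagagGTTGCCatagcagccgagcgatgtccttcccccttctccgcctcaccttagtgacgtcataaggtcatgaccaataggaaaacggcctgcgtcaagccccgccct

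Transcription factors that set airway epithelial identity rose in part. Of 31 genes on the array 17 were kept, 7 rose and 1 fell, with a median log2 difference of 0.764; without the filter 11 rose and none fell. Ehf, an Ets factor of epithelial cells, read 6.06, 5.22, 5.24, 5.61 and 5.83 at day 4 and 6.72, 7.61, 6.82, 7.04 and 8.37 at day 14, without overlap (log2 difference 1.72 ± 0.34, adjusted p = 0.000377). Foxa1, a pioneer factor of airway epithelium, rose by 1.47 ± 0.38, Sox2, which maintains proximal airway fate, by 1.34 ± 0.35, and Irx3 by 1.15. Notch3, a receptor active in early secretory cells, rose by 0.76. Hes1, a Notch target (0.77), and Klf5, an epithelial growth factor response gene (1.02), rose too, but without day 4 replicate 2 their adjusted p was 0.0729 and 0.11. Cebpd, an acute-phase factor, was the gene that fell (-1.19, adjusted p = 0.0462), a call lost on leaving out 8 of the 10 arrays singly (adjusted p up to 0.14).

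Of 35 basal and squamous genes on the array 26 were kept, and 3 of these fell (Krt17, Lama3 and Itga6), a share near the 13.5% of all genes that fell. None rose, against 11.6% of all genes, though 3 did on the reference scale; the median log2 difference was -0.29. Krt17, a keratin of migrating wound epithelium, read 9.10, 8.62, 7.36, 8.14 and 7.81 on the day 4 arrays and 4.52, 5.35, 5.51, 6.08 and 4.52 on the day 14 arrays, a 8.05-fold fall (log2 difference -3.01 ± 0.52, adjusted p = 6.48e-05) that brought it to the native level (5.30 ± 0.84). Lama3, a chain of the laminin under epithelial cells, fell by 1.11 ± 0.31 and Itga6, its integrin receptor, fell by 0.75 ± 0.17. Lama3 was kept only through its day 4 arrays and had to differ. Without the filter 3 of the 35 genes fell and none rose. Krt5 read 10.65, 10.13, 9.0, 9.65 and 9.36 and 8.37, 9.36, 9.50, 9.92 and 8.17, overlapping throughout (log2 difference -0.69, adjusted p = 0.433), and Trp63, the basal cell master regulator, averaged 6.35 ± 0.36 and 6.80 ± 0.63 (0.355).

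Krt6a, another wound keratin, read 11.68, 11.32, 8.88, 9.79 and 9.46 at day 4 and 3.19, 10.25, 8.5, 8.68 and 5.17 at day 14, and despite a log2 difference of -3.07 did not pass the test (adjusted p = 0.0924). The squamous keratin Krt13 split the arrays within each time: it read 10.68, 9.73, 3.27, 3.16 and 3.09 at day 4 and 3.17, 10.59, 10.84, 10.97 and 3.11 at day 14. Replicates 1 and 2 at day 4 and replicates 2, 3 and 4 at day 14 were high and the rest lay near background, so that its level followed neither time. Fitted to only the 10 arrays compared, or without the native array and the day 25 isograft array that correlate weakly with their groups, the basal and squamous list had 6 members that fell instead of 3.

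**Figure D3:**
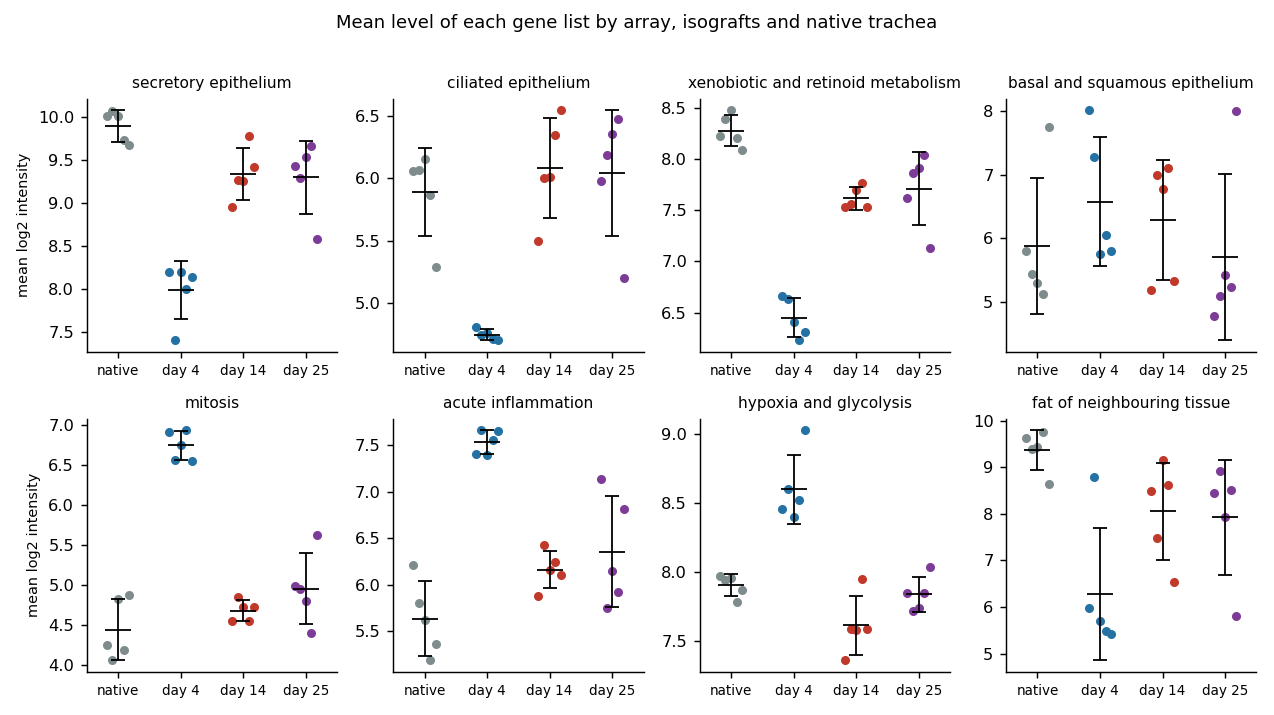
Mean log2 level of all members on the array of 8 gene lists, per array, for native trachea and isografts at days 4, 14 and 25, with the mean and SD of the 5 arrays. Secretory, ciliated and xenobiotic levels are lowest at day 4, and mitosis, acute inflammation and hypoxia levels are highest there.

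Of 40 genes of epithelial junctions and simple epithelial keratins on the array 33 were kept. Of these 9 rose, 1 fell and 23 did not pass the test, with a median log2 difference of 0.39; 12 rose on the reference scale. Tmprss2, a surface serine protease, read 4.70, 3.54, 5.23, 3.71 and 4.29 at day 4 and 6.29, 7.40, 6.94, 7.40 and 7.55 at day 14 (log2 difference 2.82 ± 0.33, adjusted p = 1.76e-07). Cldn8, a tight junction claudin, read 4.35, 4.62, 4.49, 4.42 and 4.32 and 6.85, 7.78, 6.38, 6.43 and 8.6 (log2 difference 2.76 ± 0.38, adjusted p = 1.96e-06). Cldn8 was kept only through day 14, so its groups could not overlap. The arrays of Tmprss2 did not overlap between the times, and Cldn3 rose by 1.68 with the same separation. Of the general epithelial markers, Epcam averaged 8.90 ± 0.52 and 9.30 ± 0.37 (adjusted p = 0.603), and Krt8 averaged 8.41 ± 0.20 and 8.54 ± 0.46 (0.851); neither passed the test. Krt7 fell by 1.64, but not without day 14 replicate 1 (adjusted p = 0.0639) or day 14 replicate 3 (0.0521).

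Ion transport genes rose in 6 of 15 kept members (31 on the array) and fell in none. Of the 15, 2 were kept only through day 14, Slc15a2 among them, and had to differ. The median log2 difference was 0.668 over the kept genes and 0.0312 over all 31. Without the filter 6 of the 31 rose and none fell. Slc15a2, the peptide transporter of the apical surface, read 4.10, 4.00, 4.99, 4.01 and 4.91 at day 4 and 8.42, 7.91, 7.59, 7.58 and 8.88 at day 14 (log2 difference 3.67 ± 0.49, adjusted p = 1.5e-06). Scnn1a, a subunit of the epithelial sodium channel, rose by 1.70 ± 0.32 and Atp1b1, a sodium pump subunit, by 1.54 ± 0.44, both without overlap. Clca3b, a secreted calcium-activated chloride channel regulator, rose by 2.26 ± 0.45 but its arrays overlapped, since day 14 replicate 1 read 5.46 beside 9.11 in replicate 2. Water channels did not pass the test: Aqp5 had a log2 difference of -0.10, Aqp3 of -0.80 and Aqp4 of 1.46.

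Enzymes that metabolise foreign compounds and retinoids, many of them abundant in club cells, rose in 20 of 35 kept genes (44 on the array) with 1 fall, a median log2 difference of 1.27 and no overlap in 16. Aldh1a1, which makes retinoic acid, read 9.21, 7.84, 9.20, 9.08 and 9.22 at day 4 and 11.70, 12.23, 11.88, 12.22 and 12.78 at day 14 (log2 difference 3.25 ± 0.51, adjusted p = 1.63e-05). Cyp2s1, an epithelial cytochrome P450, read 5.61, 4.42, 3.5, 3.96 and 5.34 and 6.73, 8.20, 7.73, 9.04 and 8.28 (log2 difference 3.43 ± 0.45, adjusted p = 9.11e-07). Cyp2f2, the club cell cytochrome P450, rose by 2.59 ± 0.71, Gstm1, a glutathione transferase, by 2.32 ± 0.37, and Adh1, an alcohol and retinol dehydrogenase, by 2.62 ± 0.39. These genes shared the same order of groups, with each day 14 array above each day 4 array. Gpx2, a glutathione peroxidase of epithelia, ran the other way and fell by 1.28 ± 0.34 (adjusted p = 0.00673).

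Some members of the list are also strong in fat, and for these the arrays followed the fat markers. Cyp2e1, an ethanol-oxidising cytochrome P450, had the largest difference (4.83 ± 1.02) and read 5.89, 9.92, 4.80, 3.25 and 4.07 at day 4 and 12.13, 9.62, 11.31, 10.48 and 8.55 at day 14. Its high day 4 array, replicate 2, was also the one with a high fat list level (8.80, against 5.42 to 5.99 on the other 4), and Ces1d, a carboxylesterase, read 7.66, 9.05, 6.87, 6.78 and 6.97 on the same arrays. The rise of Ces1d (2.21, adjusted p = 0.0493) was lost on leaving out 8 of the 10 arrays singly, with adjusted p up to 0.103. The part of attached fat in these differences was not tested.

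Cell division genes fell without exception among those kept. All 42 kept mitosis genes (53 on the array) fell, with a median log2 difference of -2.31, and 41 had no overlap between the times, against 9.8% of all genes. Of the 42, 15 were kept only through their day 4 arrays and had to differ; with no filter 48 of 53 fell and none rose. Top2a, the topoisomerase that untangles chromosomes before division, read 8.46, 8.23, 7.85, 7.76 and 8.0 at day 4 and 3.5, 3.70, 4.44, 4.34 and 4.76 at day 14, a 15-fold fall (log2 difference -3.91 ± 0.43, adjusted p = 7.5e-08). Mki67, the proliferation antigen, read 9.41, 9.18, 9.03, 9.41 and 8.97 and 4.99, 6.11, 5.81, 4.82 and 5.79 (log2 difference -3.70 ± 0.41, adjusted p = 8.47e-08). Native trachea averaged 4.41 ± 1.28 for Top2a and 5.41 ± 1.29 for Mki67, and neither gene differed from native at day 14 by a margin that passed the test (-0.26, adjusted p = 0.672, and 0.09, 0.888). Birc5 (survivin), Ccna2 (cyclin A2), Cdk1 (the mitotic kinase), Anln (anillin, of the cleavage furrow) and Cep55 (of the midbody) fell by 3.32 to 3.87 on the log2 scale.

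DNA replication genes followed, with 31 of 36 kept genes falling (45 on the array), none rising and a median log2 difference of -1.3. Of the 36, 4 were kept only through their day 4 arrays and had to differ. With no filter 36 of 45 fell and none rose. Rrm2, the ribonucleotide reductase subunit made in S phase, read 10.11, 9.95, 10.64, 10.48 and 9.91 at day 4 and 6.29, 7.54, 6.23, 6.61 and 7.36 at day 14 (log2 difference -3.41 ± 0.41, adjusted p = 2.94e-07). Tk1, thymidine kinase, fell by 3.09 ± 0.33. Mcm6, part of the replicative helicase, read 9.10, 8.99, 8.88, 8.53 and 8.88 and 6.44, 6.53, 6.33, 6.54 and 6.21, 2 tight and separate groups (log2 difference -2.47 ± 0.24, adjusted p = 1.02e-08). With the arrays centred on the reference genes 26 replication genes and all 42 mitosis genes still fell. The array measures whole tracheas, so fewer dividing cells and less of each transcript per cell cannot be told apart, here and in every other list.

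Promoters of genes switched on late in the cell cycle often carry a CCAAT box and a cell cycle homology region, whose core is TTTGAA, so these letters are shown for the mitosis genes. A RefSeq promoter was matched for 35 of the 42 genes that fell. TTTGAA was found in 16 of the 35 (45.7%), in 10.6% of kept genes and in 16.3% of all promoters; CCAAT was found in 25 (71.4%), in 36% of kept genes and in 34.5% of all promoters. Among the 11 promoters of ciliary genes that rose TTTGAA was found in 1 and CCAAT in 9, and GTTGCC was found in 2 of the 35 mitosis promoters; these differences between the lists were not tested. The promoters of Top2a (chr11:99024190-99024439, minus strand), Mki67 (chr7:135716380-135716629, minus strand) and Ccnb2, which encodes cyclin B2 (chr9:70421555-70421804, minus strand), are given with the CCAAT box, the cell cycle homology region and their reverse complements in capitals.
Top2a: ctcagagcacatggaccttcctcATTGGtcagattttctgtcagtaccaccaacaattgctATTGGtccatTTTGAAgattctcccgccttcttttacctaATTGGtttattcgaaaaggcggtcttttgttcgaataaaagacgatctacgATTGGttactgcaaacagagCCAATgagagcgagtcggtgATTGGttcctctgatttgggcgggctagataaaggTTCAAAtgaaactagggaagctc
Mki67: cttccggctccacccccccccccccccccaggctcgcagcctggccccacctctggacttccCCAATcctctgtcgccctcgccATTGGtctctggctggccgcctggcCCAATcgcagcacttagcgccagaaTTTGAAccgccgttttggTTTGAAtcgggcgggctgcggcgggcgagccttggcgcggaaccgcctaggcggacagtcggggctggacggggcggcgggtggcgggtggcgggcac
Ccnb2: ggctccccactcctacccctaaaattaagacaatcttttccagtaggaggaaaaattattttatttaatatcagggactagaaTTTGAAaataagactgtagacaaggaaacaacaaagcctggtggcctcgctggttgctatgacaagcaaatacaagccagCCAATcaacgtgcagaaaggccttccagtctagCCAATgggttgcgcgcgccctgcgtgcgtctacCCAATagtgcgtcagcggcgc

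Signals of acute injury fell. Of 46 genes of acute inflammation on the array 37 were kept, 24 fell and none rose (median log2 difference -1.7), with 6 kept only through day 4; without the filter 22 fell. The mean level of the list was 7.39 to 7.66 on the day 4 arrays and 5.88 to 6.43 on the day 14 arrays, against 5.19 to 6.21 in native trachea. Il6, the cytokine that drives the acute phase, read 7.63, 7.34, 7.71, 8.51 and 7.13 at day 4 and 3.39, 3.39, 3.24, 2.51 and 2.56 at day 14, a log2 difference of -4.65 ± 0.50 (adjusted p = 4.36e-08). Ccl2, which attracts monocytes, read 9.71, 9.82, 9.71, 8.74 and 8.83 and 6.21, 6.03, 6.24, 5.76 and 5.67 (log2 difference -3.38 ± 0.42, adjusted p = 4.76e-07), and Ccl7, which acts on the same receptor, fell by 3.72 ± 0.46. Il6 was kept only through day 4, so its groups could not overlap, and those of Ccl2 and Ccl7 did not overlap either. At day 14 none of the 3 differed from native past the threshold (0.58 for Il6, 0.48 for Ccl2 and 0.20 for Ccl7 on the log2 scale).

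The neutrophil attractant Cxcl1 fell by 3.12 ± 0.73 and Il1b, the cytokine of activated myeloid cells, by 2.15 ± 0.51; at day 14 Il1b was still above native (2.53, adjusted p = 0.000597). Ptgs2, the inducible prostaglandin synthase, fell by 3.30 ± 0.48, Hmox1, the inducible haem oxygenase, by 3.34 ± 0.46, and Il4ra, the shared receptor of IL-4 and IL-13, by 2.18 ± 0.36. Arg1, arginase of myeloid cells, read 11.42, 11.70, 10.20, 10.35 and 10.85 at day 4 and 5.05, 10.17, 8.95, 9.37 and 7.16 at day 14. Its day 14 arrays ranged widely, and the fall (-2.76, adjusted p = 0.0325) was lost on leaving out any of 5 arrays (day 4 replicates 1, 2 and 5, day 14 replicates 1 and 5; adjusted p up to 0.13). Orm1, an acute-phase protein, and the NF-kB inhibitor Nfkbia did not pass the test.

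Neutrophil genes fell in 9 of 13 kept members (22 on the array), and Ltf, which epithelium also makes, was the member that rose. Mmp8, neutrophil collagenase, read 7.14, 7.42, 7.64, 7.58 and 7.61 at day 4 and 3.27, 4.90, 4.67, 3.60 and 5.46 at day 14, without overlap (log2 difference -3.10 ± 0.44, adjusted p = 3.74e-06). S100a8, the abundant calcium-binding protein of neutrophils, read 10.34, 10.66, 10.07, 11.27 and 10.65 and 6.63, 11.26, 8.5, 8.20 and 8.99. Day 14 replicate 2 nearly reached the highest day 4 array while replicate 1 was far lower, and S100a8 remained above the native 3.90 ± 0.54 at day 14 (4.82, adjusted p = 3.75e-06). Its fall (-1.89, adjusted p = 0.0364) was lost on leaving out 7 of the 10 arrays singly, up to 0.14 without day 14 replicate 1.

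Macrophage genes changed in both directions. Of 47 on the array 45 were kept, 16 fell and 3 rose, and the median log2 difference was -0.436. Msr1, a scavenger receptor, read 9.35, 9.08, 9.20, 9.33 and 9.52 at day 4 and 6.27, 7.52, 6.46, 6.12 and 7.24 at day 14 (log2 difference -2.57 ± 0.44, adjusted p = 5.26e-05), Fcgr1, the high-affinity IgG receptor, fell by 2.52 ± 0.45, and Mrc1, the mannose receptor, by 1.38 ± 0.27. Gpnmb, a glycoprotein of lipid-laden and phagocytic macrophages, went the other way, reading 6.75, 6.95, 7.36, 7.02 and 7.60 and 9.23, 8.70, 9.07, 9.06 and 8.59 (log2 difference 1.79 ± 0.38, adjusted p = 0.000688), and Ctsk, a collagen-degrading cathepsin, rose by 1.60. Among the lineage genes Adgre1, a macrophage surface receptor, read 8.63, 8.81, 9.10, 8.69 and 8.73 at day 4 and 8.31, 8.03, 7.99, 7.96 and 8.36 at day 14, without overlap, and fell (log2 difference -0.66 ± 0.23, adjusted p = 0.0329). That call was lost on leaving out any of 5 arrays (day 4 replicates 2 and 3, day 14 replicates 2, 3 and 4) and under 3 other scalings, with adjusted p up to 0.205. Cd68, a lysosomal glycoprotein of macrophages, was lower on every day 14 array than on any day 4 array (9.62 ± 0.19 and 8.80 ± 0.35) but did not pass the test (adjusted p = 0.0753). Csf1r (10.41 ± 0.42 and 10.76 ± 0.24, adjusted p = 0.306) and C1qa (9.36 ± 0.35 and 9.55 ± 0.54, 0.721) did not pass the test. At day 14, 36 of the 45 genes were above native, against 12.4% of all genes in that contrast; at day 4 it was 37, against 20.8%. The 2 contrasts share the native arrays.

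Genes of alternative activation were split: Il33 (an epithelial alarmin), Il13ra1, Il4ra, Mrc1 and Arg1 fell, and Retnla, a secreted product of IL-4-stimulated macrophages and airway epithelium, rose by 2.39 ± 0.63 although day 4 replicate 3 read 9.48, within the day 14 range. In the complement and coagulation list 6 of 22 kept genes rose and 6 fell, where 11.6% of all genes rose and 13.5% fell. Cd55, which shields epithelium from complement, rose by 1.83 ± 0.28 and C2 by 1.78, while Cfp (properdin) fell by 2.16 and the anaphylatoxin receptor C3ar1 fell by 1.60.

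Antigen-presenting genes rose modestly. Of 17 kept genes of dendritic cells and MHC class II (26 on the array) 8 rose and 1 fell (Fscn1, of mature dendritic cells), with a median log2 difference of 0.587. H2-Ab1, an MHC class II chain, read 9.22, 8.56, 9.32, 8.68 and 8.92 at day 4 and 9.88, 9.98, 10.19, 10.25 and 9.45 at day 14 (log2 difference 1.01 ± 0.23, adjusted p = 0.00145), and its chaperone Cd74 rose by 0.83 ± 0.24. Itgax, the CD11c integrin of dendritic cells and some macrophages, read 5.96, 4.56, 5.56, 5.49 and 5.49 and 7.66, 7.32, 7.73, 7.86 and 7.84, with no overlap (log2 difference 2.27 ± 0.38, adjusted p = 4.15e-05), and at day 14 stood 4.36 above native on the log2 scale.

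Genes of antibody-secreting cells rose. Jchain, which joins IgA and IgM into polymers, read 2.51, 2.82, 2.83, 2.63 and 2.63 at day 4 and 7.0, 7.53, 6.03, 7.61 and 8.69 at day 14, from near background on every day 4 array to well above it on every day 14 array (log2 difference 4.69 ± 0.72, adjusted p = 1.28e-05). Its day 4 levels match those of Krt71, a hair follicle keratin (2.49 to 2.82 at day 4), so the size of the rise rests on background readings. Igha, the IgA heavy chain, read 5.66, 5.63, 5.70, 5.62 and 4.60 and 8.78, 8.12, 9.03, 10.16 and 10.43 (log2 difference 3.86 ± 0.78, adjusted p = 0.000443), and Ighm, the IgM heavy chain, rose by 3.03 ± 0.76. These 3 were the B and plasma cell genes that rose, of 7 kept and 19 on the array. Of the 7, Jchain and Ighm were kept only through day 14 and so had to differ. Without the filter 3 of the 19 rose and none fell. The other probe sets of Ighm had smaller log2 differences, from -0.15 to 1.96. Ms4a1 (CD20, of B cells before the plasma stage) had a log2 difference of 0.23 and did not pass. Of 25 T cell genes 7 were kept and Thy1, which stromal cells also express, fell (-1.01, adjusted p = 0.024), a call lost without day 4 replicate 3 (adjusted p = 0.0632) or day 14 replicate 2 (0.087). Cd3d, Cd3e, Cd3g and Cd8a did not clear the floor.

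Interferon response genes rose in 9 of 39 kept members (46 on the array; 11.6% of all genes rose) and Oasl1 fell, with a median log2 difference of 0.333. The fall of Oasl1 (-1.02, adjusted p = 0.0398) was lost on leaving out any of 6 arrays (replicates 1, 3 and 5 at each day) and on the reference scale, with adjusted p up to 0.115. Iigp1, an interferon-inducible GTPase, rose by 1.52 ± 0.34, Gbp6 by 1.37 and Ifi47 by 0.98. Ifit1 (1.17), Cxcl10 (0.50) and Irf7 (-0.48) did not pass the test. Without day 4 replicate 1 the number that rose was 5, and with the reference genes as centre it was 14.

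Genes induced by low oxygen and genes of glycolysis fell in 25 of 38 kept members (41 on the array), with 1 rise and a median log2 difference of -1.12. The mean list level was 8.40 to 9.03 on the day 4 arrays and 7.36 to 7.95 on the day 14 arrays, against 7.78 to 7.97 in native trachea, so that day 14 arrays reached down to and below native. Pgk1, phosphoglycerate kinase, read 11.33, 12.07, 11.99, 11.62 and 11.62 at day 4 and 9.67, 10.49, 10.26, 9.82 and 9.86 at day 14 (log2 difference -1.71 ± 0.21, adjusted p = 3.24e-07). Ldha, which turns pyruvate to lactate, read 11.62, 11.65, 11.46, 11.60 and 11.68 and 10.15, 9.87, 10.58, 10.59 and 9.65, and its partner Slc16a3, the lactate exporter, fell by 2.47 ± 0.38. None of the 3 overlapped, and Ldha at day 14 was below native (-0.92, adjusted p = 0.00223).

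The glucose transporter Slc2a1 fell by 1.44 ± 0.29, Pkm (pyruvate kinase) by 1.92 and Hif1a, the oxygen-sensing factor itself, by 1.34. Vegfa, the vessel growth factor, had a log2 difference of -0.49 and Hk2 of -0.84, and neither passed. Aldoc, the aldolase of neural and some epithelial cells, was the member that rose, reading 6.08, 5.18, 5.80, 5.99 and 6.69 at day 4 and 6.86, 8.12, 8.22, 8.84 and 8.87 at day 14 (log2 difference 2.23 ± 0.37). Centred on the reference genes, which include Pgk1, 20 members fell and 3 rose. Oxidative phosphorylation showed no such change: of 64 kept genes none passed limma's test in either direction (median log2 difference 0.0839), none (0) had an unadjusted p under 0.05, and 2 rose on the reference scale. Of these 64, 39 were below native at day 14 (15.8% of all genes were) and 45 at day 4 (25% of all genes), contrasts that share the native arrays. Protein folding genes fell in 8 of 32 kept members (13.5% of all genes fell), led by Serpinh1, the collagen chaperone (-1.17, adjusted p = 0.045). Only 4 fell without day 4 replicate 2, 5 without day 14 replicate 3 and 2 on the reference scale. The call for Serpinh1 was itself lost on leaving out any of 6 arrays (day 4 replicates 1, 2, 4 and 5, day 14 replicates 2 and 3) and under 2 other scalings, with adjusted p up to 0.135.

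Of 40 fibrillar collagen and matrix genes, all kept, 12 rose and 7 fell, with a median log2 difference of 0.169; 3 fell without day 14 replicate 2, and on the reference scale 15 rose and 3 fell. Mfap4, which links elastic microfibrils to cells, read 5.44, 5.72, 6.01, 6.11 and 6.79 at day 4 and 9.48, 8.11, 8.81, 8.64 and 9.34 at day 14 (log2 difference 2.86 ± 0.32, adjusted p = 7.5e-08). Eln, elastin itself, read 7.91, 7.95, 8.22, 8.44 and 8.42 and 10.71, 10.03, 10.19, 10.40 and 10.44 (log2 difference 2.17 ± 0.29, adjusted p = 1.49e-06). Both were above native at day 14, by 1.56 and 1.31 on the log2 scale (adjusted p = 0.000675 and 0.00142). Mfap2, Fmod (fibromodulin) and Ogn (osteoglycin) rose by 2.54, 2.34 and 2.28. The other 7 that rose (Fbln1, Col14a1, Fbln5, Dpt, Ltbp3, Lum and Col6a2) had log2 differences of 0.61 to 1.72, and the calls for Lum and Col6a2 were lost under some alternatives, leaving out single arrays among them (adjusted p up to 0.075 and 0.164).

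The main fibrillar collagens did not pass the test. Col1a1 read 12.91, 12.60, 12.16, 12.70 and 12.93 at day 4 and 13.29, 11.82, 12.58, 12.45 and 12.85 at day 14 (log2 difference -0.06 ± 0.31, adjusted p = 0.92), and Col3a1 had a log2 difference of 0.00; Col1a1 stood 1.85 above native at day 14. Vcan, the provisional matrix proteoglycan versican, fell by 1.93 ± 0.33 (adjusted p = 6.93e-05).

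Of 46 genes of wound remodelling on the array 41 were kept; 20 fell, 5 rose and 16 did not pass the test, with a median log2 difference of -0.94; on the reference scale 17 fell and 8 rose. Timp1, the injury-induced inhibitor of metalloproteinases, read 11.09, 10.97, 11.30, 11.40 and 11.32 at day 4 and 7.25, 6.60, 6.83, 7.41 and 7.30 at day 14, a 17.6-fold fall (log2 difference -4.14 ± 0.50, adjusted p = 2.94e-07) to a level still above native (by 2.11, adjusted p = 0.00274). Tnc, tenascin-C of healing tissue, read 10.99, 10.76, 10.06, 10.57 and 10.58 and 8.56, 7.23, 7.58, 7.73 and 8.31 (log2 difference -2.71 ± 0.34), and it did not differ from native at day 14 past the threshold (0.08, adjusted p = 0.874). Serpinb2, the plasminogen activator inhibitor of stressed cells, fell by 3.27 ± 0.67. Ereg, an EGF receptor ligand, fell by 1.90 ± 0.44. Timp4, another inhibitor, rose instead, reading 3.55, 5.86, 4.58, 4.21 and 3.99 at day 4 and 7.95, 7.43, 8.09, 8.16 and 7.38 at day 14 (log2 difference 3.37 ± 0.55), and Mmp2, gelatinase A of stromal cells, rose by 1.39 ± 0.24.

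The structural tissues of the wall changed less evenly. Cartilage genes rose in 7 of 25 kept members (11.6% of all genes rose) and fell in 1 (13.5% of all genes fell), with a median log2 difference of 0.735. Matn4, a matrilin, read 3.68, 3.03, 5.08, 3.98 and 5.12 at day 4 and 6.93, 7.02, 7.21, 7.39 and 7.36 at day 14 (log2 difference 3.01 ± 0.49, adjusted p = 3.03e-05), and Chad, chondroadherin, read 7.48, 8.51, 9.22, 8.90 and 9.89 and 11.18, 10.83, 11.42, 11.52 and 11.71 (log2 difference 2.53 ± 0.48). Prg4, lubricin, was the member that fell, from 11.67 ± 0.52 to 8.37 ± 0.78, which was below the native 10.25 ± 0.42. The core cartilage genes Col2a1 (-0.04, adjusted p = 0.972), Acan (0.49) and Sox9 (0.05) did not pass. The cartilage list level ran from 6.27 to 8.10 on the day 4 arrays and 7.41 to 8.55 on the day 14 arrays, so the groups overlapped.

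Smooth muscle genes had 4 rises and no fall among 15 kept (11.6% of all genes rose and 13.5% fell), and their median of -0.205 became 0.07 on the reference scale. Mylk (myosin light chain kinase) rose by 1.16 and Myh11 by 1.74, but Myh11 lost its call without day 4 replicate 2 (adjusted p = 0.0704), day 14 replicate 4 (0.0936) or day 14 replicate 5 (0.0547). Acta2, smooth muscle actin, averaged 11.23 ± 0.24 and 10.75 ± 0.29 (adjusted p = 0.133) and was below native at day 14 (-0.99, adjusted p = 0.00188). Endothelial genes fell in 7 of 27 kept members and rose in 2, where 13.5% of all genes fell and 11.6% rose. Only 3 fell without day 4 replicate 5, 4 without day 14 replicate 3 and 3 on the reference scale, counts near the share of all genes. Vwf, stored in endothelial granules, rose from 4.09 ± 0.59 to 6.66 ± 0.46 (log2 difference 2.57 ± 0.32, adjusted p = 5.57e-07), and Apln, apelin of sprouting tip cells, fell by 2.17 ± 0.34. Hdc, which makes histamine in mast cells, basophils and neutrophils, rose by 2.94 ± 0.48, while the mast cell genes Cpa3 (0.35) and Kit (-0.45) did not pass.

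Markers of tissues that lie against the trachea also differed between the times. Pth, parathyroid hormone, read 2.29, 7.15, 6.33, 3.07 and 2.66 at day 4 and 12.63, 11.57, 10.38, 11.99 and 11.59 at day 14, a fitted log2 difference of 7.33 ± 0.86 (adjusted p = 1.62e-07), with 12.78 ± 0.26 in native trachea. Day 4 replicates 1, 4 and 5 lay at or near background, so the size of this rise is not well determined, but every day 14 array was above every day 4 array. Tg, thyroglobulin, read 9.79, 8.65, 8.56, 8.5 and 7.82 and 14.22, 12.24, 12.78, 13.43 and 9.26, and day 14 replicate 5 was below the highest day 4 array. Chga, chromogranin A of endocrine cells including those of the airway, rose by 4.60 ± 0.54. Thyroid and parathyroid genes rose in 3 of 5 kept members (10 on the array).

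Fat genes rose in 6 of 13 kept members, and in 10 when day 4 replicate 2 was left out. Thrsp, a fat synthesis gene, read 2.93, 10.47, 2.86, 2.97 and 2.71 at day 4 and 10.37, 9.01, 11.89, 11.06 and 5.88 at day 14, so that day 4 replicate 2 stood with the day 14 arrays. Lpl, lipoprotein lipase, rose by 2.29 ± 0.46. The fat list level was 5.99, 8.80, 5.71, 5.49 and 5.42 at day 4 and 8.49, 7.49, 9.16, 8.61 and 6.54 at day 14, against 8.65 to 9.75 in native trachea. Skeletal muscle levels ranged from 4.08 to 6.48 at day 4 and from 4.44 to 7.36 at day 14, and Car3, which fat also expresses, was the 1 gene of 25 kept that rose. How much the amount of attached tissue contributes to any other difference was not tested.

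Allografts over the same days allow the isograft change to be tested for a difference. For 774 probe sets (6.36%) the day 14 minus day 4 difference was not the same in isografts and allografts: it was higher in isografts for 475 (3.9%) and lower for 299 (2.46%). Per gene these were 373 (4.95% of 7537) and 191 (2.53%). The lists differed in their share. In the secretory list 18 of 24 kept genes had a higher change in isografts, and in allografts themselves 17 of the 24 fell between day 4 and day 14. The share of all genes that fell in allografts was not computed, so the allograft counts given here cannot be set against it. In the ciliated list it was 14 of 15, with 2 falling in allografts; in the mitosis list 17 of 42 had a lower change in isografts, and 24 fell in allografts too. The filter used only the isograft arrays. It kept 5 of the 15 ciliated genes only through day 14 and 15 of the 42 mitosis genes only through day 4. Those genes had to differ in isografts, so these counts describe the kept genes only.

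Individual genes show how the paths parted. Scgb3a2 lay at 6.74 to 11.54 on the day 4 allograft arrays and 4.23 to 6.45 on the day 14 allograft arrays, so its change was 8.37 ± 0.79 log2 higher in isografts (adjusted p = 1.38e-08). Dmbt1 lay at 4.29 to 5.92 and 2.76 to 2.86 (difference of changes 7.92 ± 0.70, adjusted p = 3.9e-09). Foxj1, by contrast, was low in allografts at both days, at 4.24 to 6.53 and 4.22 to 5.05 (difference of changes 2.69 ± 0.64, adjusted p = 0.00658). Sox2, which rose by 1.34 in isografts, changed by -3.02 in allografts (difference of changes 4.36 ± 0.50, adjusted p = 4.36e-07). Trp63, which did not pass in isografts, changed by -1.87 in allografts (difference of changes 2.32 ± 0.46, adjusted p = 0.00136).

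Cell division genes set the 2 kinds of graft apart at day 14. Top2a lay at 7.31 to 8.19 at day 4 and 6.53 to 7.66 at day 14 in allografts (difference of changes -3.17 ± 0.61, adjusted p = 0.000904), and Mki67 at 8.84 to 9.27 and 6.87 to 8.51 (-2.70 ± 0.59, 0.00303). Il6 fell in allografts as well (by 3.47), and the difference of its changes did not pass the test (-1.18 ± 0.70, adjusted p = 0.399); that of Ccl2 did (-2.54 ± 0.60, 0.00616). The difference of changes was -2.83 for Timp1, -2.33 for Tnc and -2.70 for Hmox1 (adjusted p = 0.0108, 0.00194 and 0.00686); in allografts alone these genes had log2 differences of -1.31, -0.38 and -0.64 and did not pass the test. Eln, which rose in isografts, had a log2 difference of -0.92 in allografts (adjusted p = 0.0428; difference of changes 3.09 ± 0.41). Jchain rose in both, by 4.69 and 4.5, with a difference of 0.19 ± 1.02 (adjusted p = 0.956). Pth, of the parathyroid, changed by -4.96 in allografts, a difference of changes of 12.29 ± 1.21 (adjusted p = 2.59e-08).

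**Figure D4:**
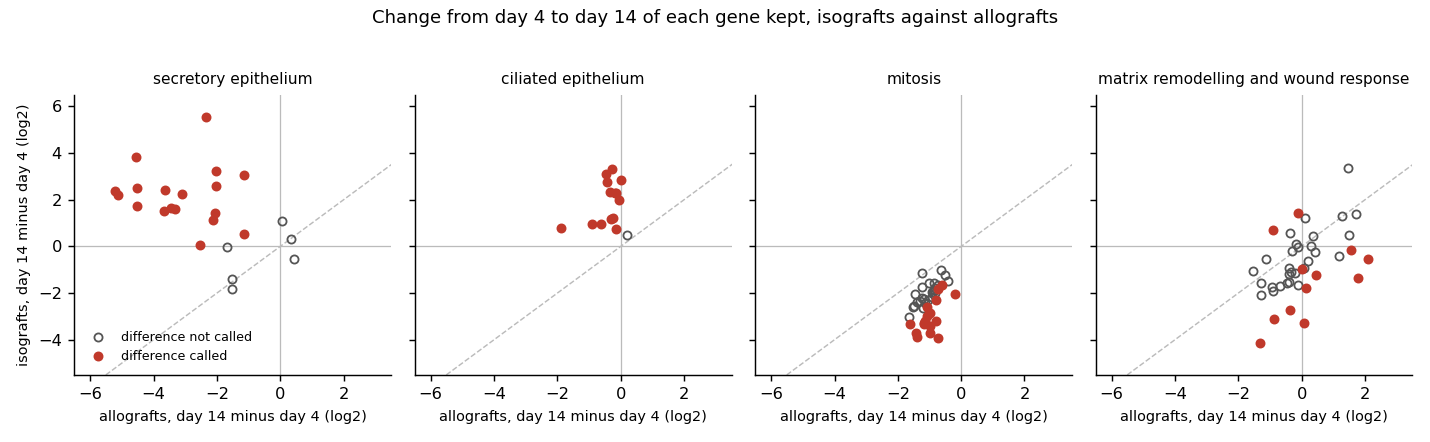
Day 14 minus day 4 log2 difference of each kept gene in isografts (vertical axis) against allografts (horizontal axis) for 4 lists; filled points mark genes whose difference of changes passed limma's test, and the dashed line marks equal change. Secretory genes (21 of 24) and ciliated genes (15 of 15) lie above the line, mitosis genes (41 of 42) below it. The filter kept 5 of the ciliated genes only through day 14 isografts and 15 of the mitosis genes only through day 4 isografts, so these had to differ in isografts.

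Set beside native trachea and the later isografts, the members ended in different places, and these contrasts share arrays with the one above. Compared with native trachea, 1505 probe sets (12.4%) were higher and 1971 (16.2%) lower in isografts at day 14, against 2645 (21.7%) and 2705 (22.2%) at day 4. Foxj1 was 7.42 ± 1.51 in native trachea and 7.73 ± 0.62 at day 25, Scgb3a2 13.54 ± 0.41 and 13.46 ± 0.64, and Top2a 4.41 ± 1.28 and 5.27 ± 0.83. Dmbt1 was 11.18 ± 1.66 at day 25, still below its native 13.02 ± 0.19, and Tff2 was 6.05 ± 0.47. Gpnmb (9.30 ± 0.88) and Mmp12, the macrophage elastase (8.68, with 3.10 in native trachea), remained high at day 25. Of 24 kept secretory genes 8 were below native at day 14 and 18 at day 4, and of 15 kept ciliated genes 0 and 11. Of all genes 15.8% were below native at day 14 and 25% at day 4. Of 42 kept mitosis genes 3 were above native at day 14 and 42 at day 4, where 12.4% and 20.8% of all genes were. The filter kept 5 of the ciliated genes only through day 14 and 15 of the mitosis genes only through day 4. These counts therefore describe the kept genes and do not show that a whole list returned to native.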

How the data were processed

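Total RNA of whole trachea (TRIzol and an RNeasy column) was made into biotin-labelled cRNA and hybridised to arrays of 22690 probe sets, of which 64 are controls. The deposited values are log2 intensities that the authors computed with GCRMA (version 1.1.3, per the submitters' processing notes), which subtracts a modelled background. No detection calls were used, so levels near background, and folds from them, depend on that model, and depth is limited by the 5 arrays per group. Probe sets were named through the platform annotation, and genes with several took the one with the highest mean. A model of the 7 group means was fitted to all 35 arrays with limma 3.58.1 (R 4.3.3; 28 residual degrees of freedom), with Benjamini-Hochberg adjustment over 12164 probe sets. On simulated data it recovered 59 of 100 log2 changes of 1 and 92 of 100 of 2, with 5 false calls. Only 100 of 12164 probe sets were changed at each size there, with independent noise, whereas 23.5% passed in the real comparison. The recovery rates therefore need not hold for these data. Named genes were the listed markers, the strongest members of each list and the 15 largest non-overlapping changes each way. The members and gene lists were chosen with earlier results of these data known. Alternatives covered filters, scaling, weights, the arrays fitted and a replicate block.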

Additional observations from a re-analysis of the deposited data

Results flagged for a closer look

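Single arrays stood far from the other 4 of their group in 9 of 202 values tested, near the 1 in 20 that chance gives. Day 4 replicate 2 held most of these: it was low for Foxa1 (7.03), Aldh1a1 (7.84), Scgb3a1 (9.69) and the secretory list level (7.40, others 8.0 to 8.20), and high for the fat list level (8.80, others 5.42 to 5.99). Another day 4 array was distant for the muscle myosin Myh1 (3.29). At day 14 distant arrays were found for Trp63 (5.69), Cftr (5.73) and the Schwann cell and nerve list level (5.98).

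The day 14 minus day 4 difference itself differed between isografts and allografts by limma's test for 28 of 58 genes examined. It was higher in isografts for the secretory genes Scgb1a1 (7.03 on the log2 scale), Scgb3a1 (7.60), Scgb3a2 (8.37), Bpifa1 (7.35), Dmbt1 (7.92) and Muc5b (5.37). Ciliated cell genes were higher too, with Foxj1 at 2.69, Tppp3 at 3.56 and Rsph1 at 3.60. Among other epithelial genes the differences were 2.32 for Trp63, 4.91 for Foxa1, 3.28 for Epcam, 2.36 for Krt8, 5.30 for Aldh1a1 and 4.61 for Cyp2f2. The thyroid and parathyroid products Tg (9.04) and Pth (12.29) and the interferon-induced exonuclease Isg20 (2.22) also had higher changes in isografts.

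Lower changes in isografts were found for Top2a (-3.17) and Mki67 (-2.70) among division genes, and for the injury genes Ccl2 (-2.54), Ccl7 (-3.62), Hmox1 (-2.70) and Ldha (-1.16). In the matrix group they were found for Tnc (-2.33), Timp1 (-2.83), Serpinb2 (-3.34) and Mmp9 (-3.15).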

How the results depend on the processing

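The 1160 rises and 1699 falls became 652 and 1113 with a log2 floor of 7, 2522 and 867 with reference-gene centring, 639 and 1003 at an adjusted p under 0.01, and 586 and 709 at 2-fold or more. Leaving out each array in turn gave 959 to 1126 rises and 1313 to 1676 falls. The other scalings, filters, array weights and array sets kept both counts within 1.5 times. For the difference from allografts, 475 higher and 299 lower, the counts were 291 higher with the log2 floor of 7, 766 and 182 with reference-gene centring, 286 and 110 at an adjusted p under 0.01, and 463 and 601 lower with only the arrays compared and with array weights; single arrays left out gave 384 to 512 and 199 to 352 (199 without allograft day 14 replicate 3). Of 151 named genes that passed, 123 passed under every alternative that gave them a value and 28 lost the call in at least 1, with 0 changes of sign. The thresholds of adjusted p under 0.01 and of 2-fold were not among these alternatives. With the log2 floor of 7 only 107 of the 151 had a value, and 148 had one where the mean of the 10 arrays had to reach 5. Grhl2, which did not pass (-0.15), reversed to 0.60 (adjusted p = 0.0281) as the mean of its probe sets; the cause was not tested. The deviations of same-numbered day 4 and day 14 arrays correlated at r of -0.11, -0.20, -0.18, -0.18 and 0.44, and only replicate 5 correlated best with its own number. With so few arrays this cannot tell whether the numbers pair them. The replicate block gave 1181 rises and 1730 falls. In the simulation, where a smaller share of probe sets changed, a log2 change of 1 was often missed. The rate missed in these data is not known.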
